A study of Mus musculus with 6 samples.

Results

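The genes described here encode the motors, adaptors and microtubule-binding proteins that move cargo along axons, together with ankyrins and spectrins, the proteins of the axonal membrane skeleton. The 45 members were listed by gene symbol, and a probe set was assigned to a member where the platform annotation gave that gene alone. This gave 137 probe sets for 44 genes. No probe set stood for the light chain gene Klc2 alone, so it was not analysed here. The members were divided by role into 13 kinesins with their light chains, 12 dynein and dynactin genes, 8 genes of microtubule-associated proteins, 4 ankyrin and spectrin genes, and 8 genes of cargo adaptors and dynein regulators.

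Messenger RNA was measured on Affymetrix mouse arrays in the retina of DBA/2J, an inbred mouse strain that develops high eye pressure and glaucoma as it ages. Whole retinas of females were used at both ages, and the labels name no treatment. Each of 6 arrays held 1 retina from a separate animal, 3 at 3 months of age with normal pressure and 3 at 8 months chosen for elevated pressure. Final eye pressure averaged 17.5 ± 1.99 mmHg in the younger eyes and 27.4 ± 2.67 mmHg in the older ones (SD, n = 3 per age), so age and pressure cannot be told apart. All 3-month retinas and 8-month retina 1 were left eyes, whereas 8-month retinas 2 and 3 were right eyes.

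Retinal ganglion cells send their axons through the optic nerve to the brain, and proteins and organelles made in the cell body travel along microtubules to reach the terminal. Kinesins walk mostly outward, toward the plus ends of axonal microtubules, while cytoplasmic dynein, with its activator dynactin, returns cargo to the cell body. Axonal transport is known to be impaired in glaucoma, which is the background to examining its genes in this strain. These genes are also used by photoreceptors, bipolar and amacrine cells and glia, all of which contribute RNA to a whole retina.

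In a whole retina, fewer cells of a type and less RNA per cell cannot be told apart. The tissue held the defining transcripts of retina, with the rod gene Gnat1 at 13.39 and 13.47 and the Müller glia gene Glul at 13.35 and 13.50 at 3 and 8 months (log2). Of 19 listed ganglion cell markers, 17 were measured, and 13 of these were lower at 8 months and 4 higher, with a median log2 difference of -0.12 and 0 past the adjusted threshold. Their summed linear level ranged from 9126 to 9972 at 3 months and from 8645 to 9277 at 8 months, and the ganglion cell transcription factor gene Pou4f3 lay below the filter described next. At an unadjusted limma p under 0.05, 2 of the 17 were lower and 0 higher, against 11.5% and 3.58% of all genes. These were Tubb3 at -0.57 and Pou4f1 at -0.26, each with the ages apart. Of 12 measured rod markers, 10 were lower, with a median of -0.18 and summed levels of 51420 to 56670 at 3 months and 51230 to 52180 at 8 months. By the same unadjusted threshold, 5 of the 12 were lower and 0 higher, and 0 passed the adjusted one. Of 14 listed markers of microglia and macrophages, 7 were measured and all 7 were higher, with a median of 0.65 and summed levels of 548.9 to 578.5 at 3 months and 869.2 to 1079 at 8 months. Of 8 listed markers of astrocytes and gliosis, 6 were measured, 4 higher and 2 lower, with a median of 0.80, summed levels of 388.1 to 564.4 and 512.2 to 1438, and Gfap and Lcn2 at 1.07 and 2.01. The ages were apart in Gfap but overlapped in Lcn2, Cp and Serpina3n, where 8-month retina 1 lay within the younger range. Lcn2 read 5.23, 8.97 and 8.19 in 8-month retinas 1, 2 and 3, against 5.03 to 5.87 at 3 months. The part of these cell types in the results below was not tested. Lens crystallins stood out in 8-month retina 1 and 3-month retina 3, with mean log2 levels of 9.27 and 10.4 against 4.69 to 6.49 in the other 4 retinas. Markers of pigment epithelium also varied within an age. Their mean log2 levels were 4.83, 5.92 and 6.81 in 3-month retinas 1, 2 and 3 and 6.27, 6.47 and 5.35 in the 8-month ones. The part of these tissues in the results was not tested either.

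No member passed the test between ages. The deposited values are log2 levels per probe set, and a probe set was tested where at least 3 of the 6 values reached 4. All 44 members on the array had at least 1 such probe set, 99 of 137 in all, and 0 of the 99 had all 3 values of an age below 4. Below, the probe sets of a gene are those tested, except where stated. Of the 99, 0 passed in either direction (limma, Benjamini-Hochberg adjusted over 20973 probe sets; smallest adjusted p = 0.208), where 0.00477% of all probe sets passed. An unadjusted limma p under 0.05 was found for 18 member probe sets, of 13 genes, or 18.2%, against 14.9% of all probe sets tested. Of these, 14 were lower at 8 months, 14.1% against 10.3% of all, and 4 were higher, 4.04% against 4.63%. The ages did not overlap in 22 member probe sets, 22.2% against 21.8% of all, of which 16 were lower, 16.2% against 14.9%, and 6 higher, 6.06% against 6.89%. A difference below 0 was found in 59 probe sets, 59.6% against 59.4%. These shares lie near the background.

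With each gene represented by its brightest probe set, 0 of 44 genes passed the adjusted threshold, against 0.00891% of all genes. There were 8 members lower at an unadjusted limma p under 0.05, 18.2% against 11.5%, and 1 higher, 2.27% against 3.58%. The ages did not overlap in 10 that were lower, 22.7% against 16.9%, and in 2 that were higher, 4.55% against 6.05%. Of the genes, 8 differed by 1.2-fold or more, 18.2% against 17.9%, and 0 by 1.5-fold, against 1.22%.

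Counts at an unadjusted limma p under 0.05 moved with the arrays and the scaling, for members and for all probe sets alike. The 14 lower member probe sets became 9 without 3-month retina 1, where 8.01% of all probe sets were lower, and 7 without 3-month retina 3, against 7.82% of all. They became 8 without 8-month retina 1, against 6.77% of all, and 7 without 8-month retina 3, against 8.71%. The 4 higher ones became 2 without 3-month retina 3, against 3.27% of all. Quantile normalization gave 7 lower and 6 higher members, beside 6.69% and 6.62% of all probe sets. Cyclic loess gave 6 and 6, beside 6.54% and 6.88%, and centring each array on its median gave 5 and 8, beside 4.77% and 10.2%.

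Differences among the members were small. The largest was 1.45-fold, in a probe set of the kinesin gene Kif1b, so 0 of 99 reached 1.5-fold, against 1.49% of all probe sets, and 23 reached 1.2-fold, 23.2% against 19.5%. Spread between retinas of an age was likewise close to that of other genes, with a median SD of 0.14 for member probe sets and 0.14 for all (log2). When each gene was represented by its brightest probe set, the median log2 difference over 44 member genes was -0.08, with 28 below 0, and over all 11219 genes it was -0.06, with 63.5% below 0. By class the medians were -0.05 for kinesins, -0.01 for dynein and dynactin, -0.11 for microtubule-associated proteins, -0.15 for ankyrins and spectrins and -0.01 for adaptors and regulators. The median over dynein and dynactin was -0.23 when probe sets marked as less specific in their names were left out, beside -0.06 over all genes. That choice dropped Dync1i1 and Dynlrb1, at 0.09 and 0.01. It also represented Dynll2 and Dctn1 by dimmer probe sets, at -0.36 in place of 0.05 and at -0.32 in place of -0.13. The value thus reflects a change of genes and probe sets.

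**Figure D1:**
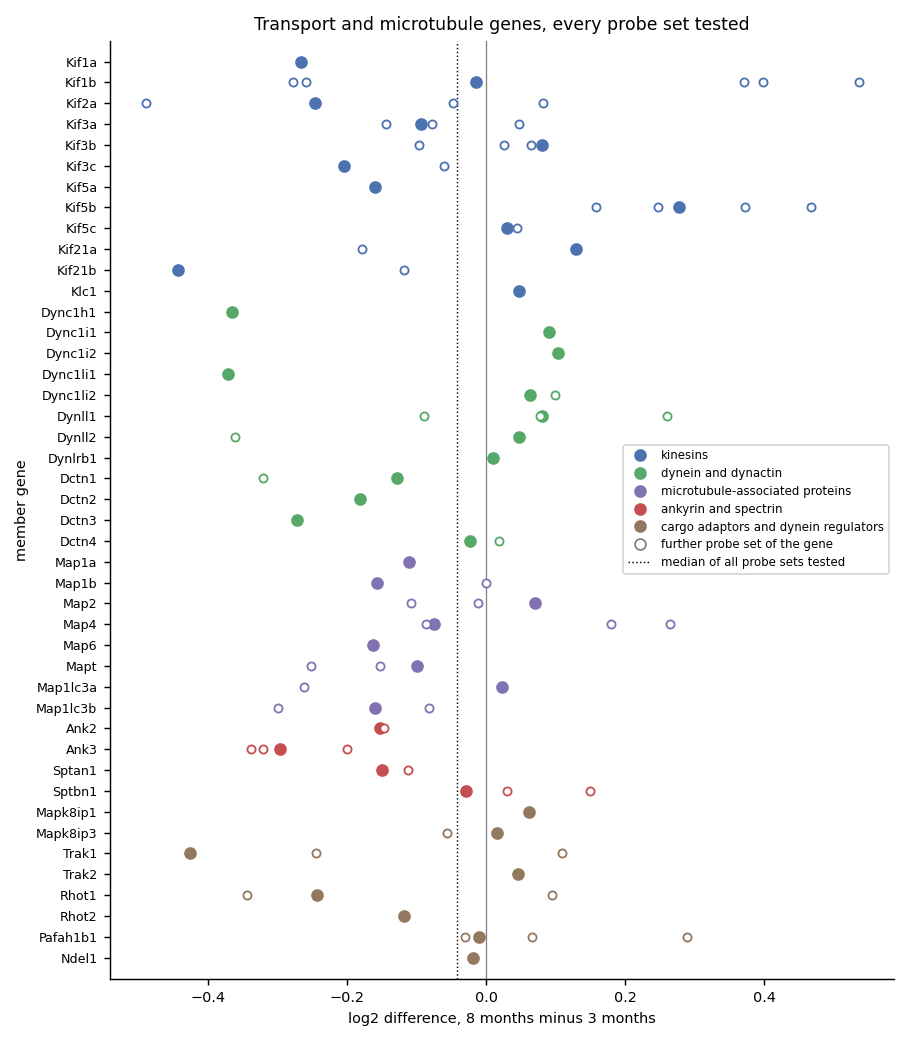
Log2 difference between 8 and 3 months (x axis) for each member gene (y axis), with filled points for the brightest probe set of a gene, open points for its further probe sets, and a dotted line at the median of all probe sets tested. Points lie on both sides of the line in every class, while all 5 tested Kif5b probe sets lie to the right of 0 and all 4 tested Ank3 probe sets to the left.

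**Figure D2:**
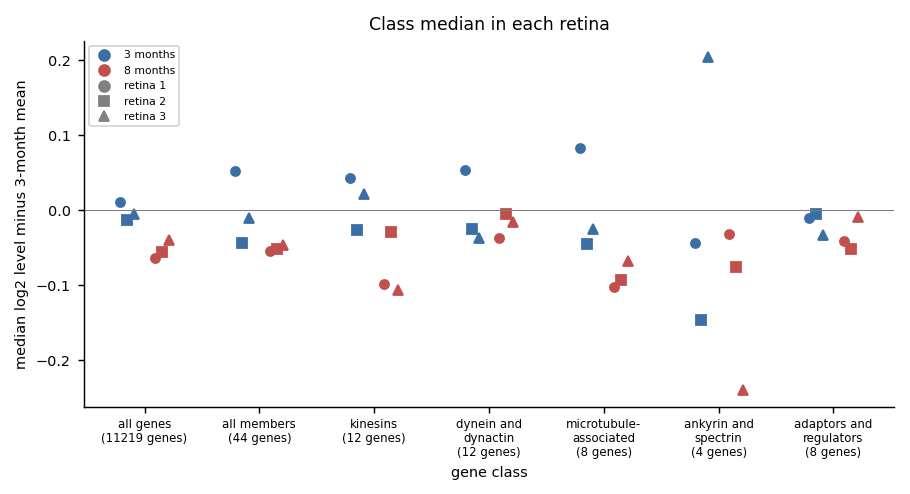
Median log2 level in each retina, relative to the 3-month mean of each gene (y axis), for all genes, all members and each class (x axis), with blue for 3 months, red for 8 months and a symbol for each retina. The 8-month medians of all 44 members lie between -0.0549 and -0.0468, just below the younger ones, which run from -0.0436 to 0.0525.

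The 3 older retinas lay below the 3 younger ones in the median of all genes, all members, kinesins and microtubule-associated proteins, and overlapped with them in the other 3 classes. For kinesins the ages were nearly level at their closest, with 8-month retina 2 at -0.0286 and 3-month retina 2 at -0.0267. The median over microtubule-associated proteins was 0.08, -0.04 and -0.03 in younger retinas 1, 2 and 3 and -0.10, -0.09 and -0.07 in the older ones. Ankyrins and spectrins, by contrast, ranged more widely within an age, at -0.04, -0.15 and 0.20 in the younger retinas and -0.03, -0.08 and -0.24 in the older ones. Within the younger group, 3-month retina 1 gave the highest value in 54 of 99 member probe sets, 54.5% against 40.2% of all probe sets, and 3-month retina 2 the lowest in 50, 50.5% against 38.1%.

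Kinesin-1 is the main motor of fast outward transport, built of heavy chains encoded by Kif5a, Kif5b and Kif5c. Kif5b, the most widely expressed of the heavy chains, was higher at 8 months in all 5 of its probe sets tested. In the brightest, 1418428_at, the younger retinas 1, 2 and 3 had log2 levels of 10.15, 10.39 and 10.16, and the older ones, in the same order, 10.51, 10.48 and 10.55. Values of further genes follow this order. All 3 older retinas were above all 3 younger ones, a 1.21-fold difference that did not pass (log2 difference 0.28 ± 0.09 SE; limma adjusted p = 0.278). In 1418429_at the level was 7.45, 7.44 and 7.20 at 3 months and 7.98, 7.85 and 7.67 at 8 months. Here too the ages were apart, by 1.38-fold (0.47 ± 0.12 SE; limma adjusted p = 0.223). The other 3 probe sets of Kif5b had log2 differences of 0.37, 0.25 and 0.16 with overlapping ages.

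Kif5a, the neuronal heavy chain gene, ran the other way, at 10.30, 10.24 and 10.31 at 3 months and 10.03, 10.19 and 10.16 at 8 months. The ages did not overlap, and the difference of -0.16 ± 0.08 did not pass (log2, SE; limma adjusted p = 0.401). Kif5c, also neuronal, read 10.02, 9.99 and 9.90 and then 9.88, 10.03 and 10.10, with overlapping ages and a difference of 0.03 ± 0.09. Klc1, a light chain that binds cargo, differed by 0.05 ± 0.13 (log2, SE).

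Kif1a and Kif1b encode kinesin-3 motors, of which Kif1a carries synaptic vesicle precursors. Kif1a stood at 5.75, 5.48 and 5.72 at 3 months and at 5.44, 5.38 and 5.34 at 8 months. The ages were apart without passing (log2 difference -0.27 ± 0.10 SE; limma adjusted p = 0.300). Kif1b makes several isoforms that carry mitochondria or synaptic vesicle precursors, and its 6 probe sets did not move as one. In 1455182_at the level was 5.04, 5.37 and 5.22 at 3 months and 5.90, 5.73 and 5.60 at 8 months. This difference of 0.54 ± 0.12 was the largest of any member in size and had the smallest limma adjusted p, 0.208. The much brighter 1423994_at read 10.76, 10.48 and 10.81 and then 10.46, 10.51 and 10.25, lower by -0.28 ± 0.12 with overlapping ages. The log2 ratio of the former to the latter, taken within each retina, was higher by 0.81 at 8 months with the ages apart. This is a description with no test, since the pair was chosen for its opposite differences after the values were seen.

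**Figure D3:**
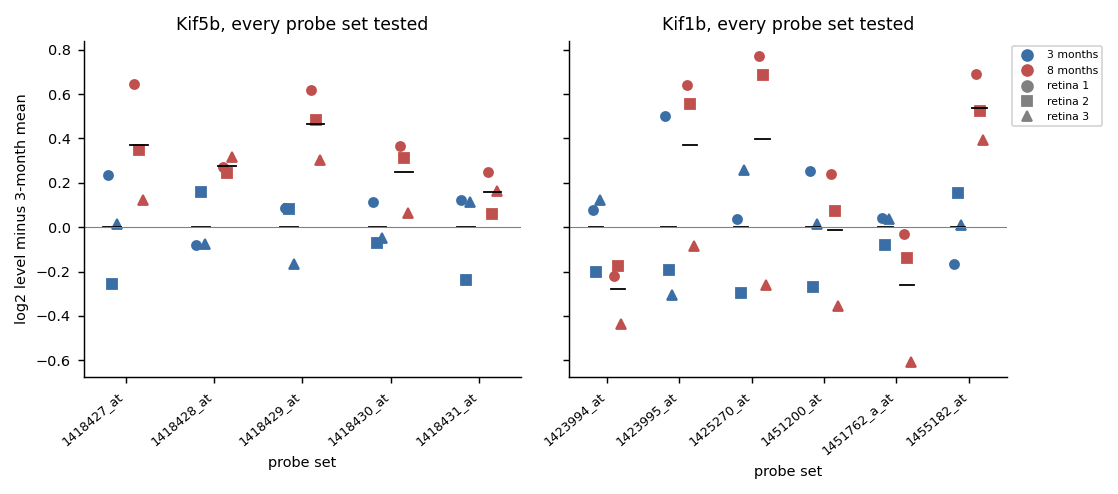
Log2 level in each retina relative to the 3-month mean (y axis) for the 5 probe sets of Kif5b and the 6 of Kif1b that were tested (x axis), with blue for 3 months, red for 8 months, a symbol for each retina and a bar at each mean. Every Kif5b mean is higher at 8 months, by 0.16 to 0.47, whereas Kif1b means run from -0.28 to 0.54 and 8-month retina 3 is the lowest of the older retinas in all 6.

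Kif1b also showed differences between single retinas. In 1425270_at, 8-month retinas 1 and 2 read 6.33 and 6.24 and retina 3 read 5.29, within the younger range of 5.26 to 5.82. The brightest Kif1b probe set, 1451200_at, read 11.70, 11.54 and 11.11 in the same retinas and 11.72, 11.20 and 11.48 at 3 months, with a difference of -0.01 ± 0.19. The spread within an age thus exceeded the difference between ages there.

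Kif21a and Kif21b encode kinesin-4 family motors that act at growing microtubule ends. Kif21b stood at 6.24, 6.41 and 6.54 at 3 months and at 5.94, 5.85 and 6.07 at 8 months. All older retinas were below all younger ones, by 1.36-fold, the largest difference among brightest probe sets of members (log2 -0.44 ± 0.11 SE; limma adjusted p = 0.222), while a dimmer probe set differed by -0.12 with overlapping ages. Kif21a differed by 0.13 ± 0.08 in its brightest probe set, with the ages apart, and by -0.18 ± 0.14 in the other, with overlap. Kif2a belongs to a family that takes microtubules apart at their ends. Its brightest probe set read 10.16, 9.88 and 10.16 at 3 months and 9.77, 9.86 and 9.82 at 8 months, a difference of -0.25 ± 0.10 that did not pass (limma adjusted p = 0.326). The younger retina 2 lay just above the older ones, and the 4 probe sets ran from -0.49 to 0.08. The lowest of these, 1454107_a_at, read 5.25, 4.91 and 4.71 and then 4.59, 4.68 and 4.14, with the ages just apart (limma adjusted p = 0.306). The kinesin-2 genes Kif3a, Kif3b and Kif3c, whose motor also serves transport within cilia, including the photoreceptor cilium, differed by -0.09, 0.08 and -0.20 with overlapping ages.

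Cytoplasmic dynein is built on a heavy chain, Dync1h1, that holds the motor, with intermediate, light intermediate and light chains that attach cargo. Of 12 dynein and dynactin genes, 6 were lower at 8 months, 6 were higher and 0 passed. The 2 with an unadjusted limma p under 0.05 in the brightest probe set, 16.7% of the class against 15.1% of all genes, were the heavy chain gene Dync1h1 and the light intermediate chain gene Dync1li1, both lower. Dync1h1 read 7.67, 7.97 and 8.27 at 3 months and 7.64, 7.62 and 7.55 at 8 months. The ages were apart by only the gap between 7.64 and 7.67, since the younger retinas spread widely (log2 difference -0.37 ± 0.15 SE; limma adjusted p = 0.328). Dync1li1 stood at 7.07, 6.81 and 6.87 at 3 months and at 6.46, 6.56 and 6.62 at 8 months. Here the younger retinas lay well above the older ones, a 1.29-fold difference that did not pass (-0.37 ± 0.10 SE; limma adjusted p = 0.229).

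The promoters of Dync1h1 and Dync1li1 are shown with that of the mitochondrial adaptor gene Rhot1. Each of these genes had an unadjusted limma p under 0.05 in the brightest probe set and has 1 annotated start in RefSeq. The genes are examples and need not be all members that meet both conditions. Each window is the 250 bases before the start on the plus strand of GRCm38.p6, in lower case with each GC box (GGGCGG on either strand) in capitals. They lie at chr12:110601145-110601394 for Dync1h1, chr9:114688581-114688830 for Dync1li1 and chr11:80208801-80209050 for Rhot1.
Dync1h1: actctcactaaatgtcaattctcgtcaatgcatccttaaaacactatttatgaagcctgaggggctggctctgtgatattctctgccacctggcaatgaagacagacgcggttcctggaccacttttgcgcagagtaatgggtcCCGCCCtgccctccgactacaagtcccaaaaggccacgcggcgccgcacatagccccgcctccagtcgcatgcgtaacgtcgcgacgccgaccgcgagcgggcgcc
Dync1li1: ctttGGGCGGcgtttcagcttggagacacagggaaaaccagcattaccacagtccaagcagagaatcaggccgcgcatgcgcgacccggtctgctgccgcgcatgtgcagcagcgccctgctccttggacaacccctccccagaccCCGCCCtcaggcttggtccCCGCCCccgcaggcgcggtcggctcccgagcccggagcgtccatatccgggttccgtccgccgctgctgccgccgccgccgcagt
Rhot1: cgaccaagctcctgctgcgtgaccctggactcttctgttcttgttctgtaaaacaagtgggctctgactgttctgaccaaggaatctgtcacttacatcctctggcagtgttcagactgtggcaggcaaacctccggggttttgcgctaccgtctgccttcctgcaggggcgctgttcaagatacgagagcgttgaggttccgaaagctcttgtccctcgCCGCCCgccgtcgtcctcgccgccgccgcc
GC content was 58% in the first, 69.6% in the second and 58.8% in the last, against a median of 52.4% over 32851 windows of RefSeq starts. A GC box, the letters bound by Sp1-family factors, occurred 3 times before Dync1li1 and 1 time before each of the others. For 33 members, 47 windows were read, and the other members are not covered. Of the 33, 24 genes held at least 1 GC box, in 59.6% of windows against 32.7% of all windows. The member windows were also richer in G and C, with a median of 58.8% against 52.4%, and the share was not adjusted for this. The letters TATAAA occurred on either strand in 4 member windows, 8.51% against 12.4%, and TGACGT, the core of the cAMP response element, in 6, 12.8% against 6.47%. The array values bear on transcript levels and not on these windows, so the matches describe the sequences only.

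Dync1li2, the second light intermediate chain gene, differed by 0.06 ± 0.08 and 0.10 ± 0.13 in its 2 probe sets. The intermediate chain genes Dync1i1 and Dync1i2, which bind dynactin, differed by 0.09 ± 0.08 and 0.10 ± 0.08, and the roadblock light chain gene Dynlrb1 by 0.01 ± 0.08 (log2, SE). The light chain genes Dynll1 and Dynll2 encode close copies of one small protein that also serves other complexes, so their probe sets may not be fully separate. Of 4 Dynll1 probe sets, 1456125_a_at read 10.82, 10.73 and 10.53 at 3 months and 10.88, 10.98 and 10.99 at 8 months, with the ages apart (0.26 ± 0.10 SE; limma adjusted p = 0.305). The other 3 differed by -0.09 to 0.08. The dimmer Dynll2 probe set, 1418371_at, read 5.83, 6.09 and 6.34 and then 5.56, 5.84 and 5.77, with overlapping ages and a difference of -0.36 ± 0.15, while the brightest differed by 0.05 ± 0.08.

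Dynactin links dynein to cargo and keeps it on the microtubule. Dctn1 encodes its p150Glued subunit, and its 1422521_at read 6.64, 6.70 and 6.91 at 3 months and 6.32, 6.35 and 6.62 at 8 months. The highest older retina lay just below the lowest younger one (-0.32 ± 0.12 SE; limma adjusted p = 0.299), and the brighter, less specific Dctn1 probe set differed by -0.13 ± 0.11 with overlap. Dctn2, the dynamitin gene, read 8.09, 7.95 and 8.07 and then 7.84, 7.84 and 7.89. The ages did not overlap, with a difference of -0.18 ± 0.08 (limma adjusted p = 0.341). Dctn3 differed by -0.27 ± 0.17 with overlapping ages, its 3-month retina 3 reading 6.12 against 5.33 to 5.66 in the others. Dctn4 was level in both of its probe sets tested, at -0.02 ± 0.08 and 0.02 ± 0.11 (log2, SE).

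Microtubule-associated proteins stabilise and space the microtubule tracks, Map2 chiefly in dendrites and Mapt, which encodes tau, and Map1b in axons. Of 8 genes, 6 were lower in the brightest probe set, 75% against 63.5% of all genes, and 0 of 19 probe sets had an unadjusted limma p under 0.05, against 14.9% of all probe sets. Map1lc3b, whose product LC3B marks autophagosomes, read 10.54, 10.51 and 10.37 at 3 months and 10.18, 10.30 and 10.46 at 8 months. Only 8-month retina 3 reached into the younger range (-0.16 ± 0.10 SE; limma adjusted p = 0.483). All 3 tested probe sets of Map1lc3b were lower, by -0.30 to -0.08, while Map1lc3a, its close relative, differed by 0.02 and -0.26 in its 2 probe sets. Map6, which protects microtubules from cold, read 7.32, 6.97 and 7.20 and then 7.09, 6.86 and 7.06. The ages overlapped, with a difference of -0.16 ± 0.12 (limma adjusted p = 0.529).

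Map1b read 8.32, 8.35 and 8.63 at 3 months and 8.42, 8.28 and 8.13 at 8 months, with overlapping ages and a difference of -0.16 ± 0.12, and its other probe set was level at -2.40e-04. Map1a, found mostly in mature neurons, differed by -0.11 ± 0.09, reading 6.12, 5.98 and 6.01 and then 5.81, 6.04 and 5.93. All 3 tested probe sets of Mapt were lower with overlapping ages, by -0.10, -0.25 and -0.15. Map2 differed by 0.07 ± 0.11 in its brightest probe set. In Map4, which is expressed in many cell types, 1416091_at differed by -0.08 and 1437855_at by 0.18, each with the ages apart and on opposite sides, so the direction depended on the probe set.

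Ankyrins tie membrane channels to the spectrin lattice, and ankyrin-G, the product of Ank3, organises the axon initial segment. All 4 Ank3 probe sets tested were lower at 8 months, by -0.34 to -0.20. Below the filter and not tested, 1447259_at and 1457288_at differed by 0.19 and 0.27. In 1452124_at the level was 8.74, 8.80 and 9.03 at 3 months and 8.50, 8.55 and 8.56 at 8 months. The ages were apart by 1.25-fold without passing (-0.32 ± 0.10 SE; limma adjusted p = 0.262). In the brightest, 1452872_at, the level was 9.26, 9.10 and 9.44 and then 8.90, 9.15 and 8.86, with 8-month retina 2 inside the younger range (-0.30 ± 0.12 SE; limma adjusted p = 0.326).

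Ank2, the gene of ankyrin-B, which spans the rest of the axon, varied mainly between retinas, at 11.79, 11.53 and 12.12 at 3 months and 11.83, 11.78 and 11.36 at 8 months. The difference of -0.15 ± 0.18 came from 3-month retina 3 and 8-month retina 3 at the extremes, and it was 0.00169 without 3-month retina 3. That retina was also the highest of its age in Ank3 and in the alpha-spectrin gene Sptan1, which read 9.29, 9.28 and 9.64 and then 9.37, 9.07 and 9.33, a difference of -0.15 ± 0.13. It was one of the crystallin-rich retinas, and the part of lens material in these values was not tested. Sptbn1, a beta-spectrin gene, read 12.09, 12.09 and 12.27 and then 12.13, 12.16 and 12.09. Its difference of -0.03 ± 0.08 was smaller than the spread, and its other probe sets differed by 0.03 and 0.15.

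Trak1 and Rhot1 encode partners in mitochondrial transport, in which the membrane GTPase Miro1, product of Rhot1, is joined to kinesin-1 and dynein by Trak adaptors. Trak1 stood at 9.24, 9.15 and 9.43 at 3 months and at 8.94, 8.87 and 8.73 at 8 months. All older retinas were below all younger ones, by 1.34-fold (log2 -0.43 ± 0.10 SE; limma adjusted p = 0.223). A dimmer Trak1 probe set, 1456755_at, was also apart, at 5.81, 5.89 and 5.95 against 5.72, 5.57 and 5.64, and the last differed by 0.11 with overlap. Rhot1 was lower in its 2 brighter probe sets. In 1440853_at it read 9.69, 9.67 and 9.78 at 3 months and 9.33, 9.45 and 9.33 at 8 months, and the gap between the ages was wider than the range of either (-0.34 ± 0.08 SE; limma adjusted p = 0.218). In 1423533_a_at it read 10.60, 10.39 and 10.43 and then 10.17, 10.38 and 10.14, with 8-month retina 2 nearly level with 3-month retina 2 (-0.24 ± 0.10 SE; limma adjusted p = 0.330).

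**Figure D4:**
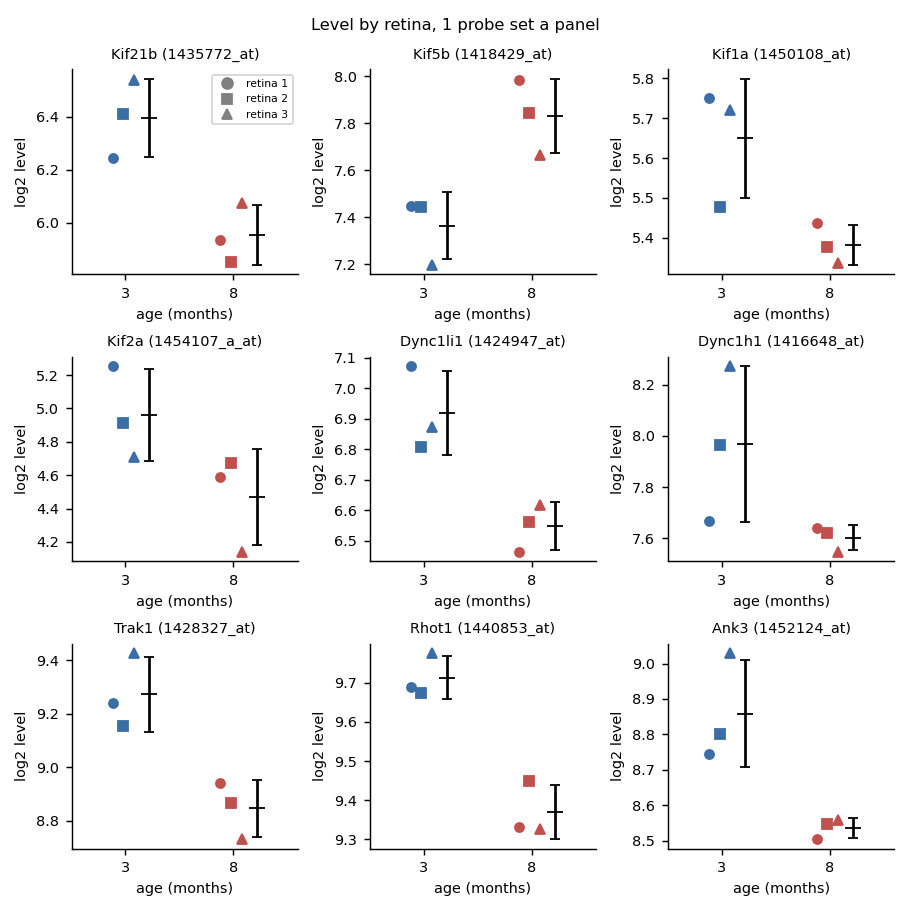
Log2 level (y axis, not starting at 0) of 9 member probe sets in each retina at 3 and 8 months (x axis), with a symbol for each retina and black bars for the mean ± SD of 3. The 9 members were picked after their values were seen, for ages that do not overlap, and each is shown by its probe set of smallest p. In the panels, 8 are lower at 8 months with log2 differences from -0.49 to -0.27, and Kif5b is higher by 0.47. Further members with ages apart are not shown, including the higher probe sets of Kif1b, Dynll1, Kif21a and Map4. Over all tested member probe sets, the ages did not overlap in 16 lower (16.2%, against 14.9% of all) and 6 higher (6.06%, against 6.89%).

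The other adaptors and regulators differed by -0.12 to 0.06 in their brightest probe sets. Rhot2, the gene of Miro2, read 7.61, 7.78 and 7.69 at 3 months and 7.49, 7.59 and 7.66 at 8 months, and Trak2 differed by 0.05 ± 0.12. The ages of Rhot2 overlapped, with a difference of -0.12 ± 0.09 (limma adjusted p = 0.544). Mapk8ip1 and Mapk8ip3 encode the JIP scaffolds that link kinesin-1 to vesicles and kinases, and they differed by 0.06 ± 0.09 and 0.02 ± 0.07. For Mapk8ip1 the values were 5.22, 5.06 and 4.99 and then 5.21, 5.08 and 5.17. Pafah1b1, the gene of the dynein regulator LIS1, read 11.45, 11.49 and 11.43 and then 11.41, 11.47 and 11.45 in its brightest probe set, while its other 3 probe sets differed by -0.03, 0.29 and 0.07 with overlapping ages. Its partner gene Ndel1 differed by -0.02 ± 0.11 (log2, SE).

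Several members come as close relatives, and the log2 ratio of 2 relatives within a retina does not depend on a scaling that shifts a whole array. Over all 17 pairs of relatives within a family, the ratio had non-overlapping ages in 6. The share over other gene pairs was not computed, and for single genes it was 23%. The 3 ratios among Kif5a, Kif5b and Kif5c are all in the 6, and each of these follows from the other two. For all 6 the two-sided exact permutation test gave p = 0.1, the smallest it allows here, and 0.283 after Benjamini-Hochberg adjustment over the 17 pairs. The ratio of Kif21a to Kif21b was 4.55, 4.60 and 4.41 at 3 months and 5.09, 5.21 and 4.97 at 8 months, higher by 0.57. The ratio of Kif5a to Kif5b was 0.15, -0.15 and 0.16 and then -0.48, -0.29 and -0.39, a change of -0.44. The ratio of Dync1li1 to Dync1li2 was -3.87, -4.04 and -3.92 and then -4.44, -4.39 and -4.30, a change of -0.43. In these 3 pairs the gap between ages was wider than the younger range for Kif21 and Dync1li and narrower for Kif5, where 3-month retina 2 stood apart.

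The other 3 were the ratios of Kif5b to Kif5c, higher by 0.25, of Kif5a to Kif5c, with a change of -0.19, and of Kif3b to Kif3c, higher by 0.28. Trak1 over Trak2 had a larger change, -0.47, but overlapping ages, since 3-month retina 2, at 0.79, lay below 8-month retina 1, at 0.85. Dync1i1 over Dync1i2 and Dynll1 over Dynll2 were nearly level, at -0.01 and 0.03. A change of ratio shows that 2 relatives differed unequally and not which of them moved.

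**Figure D5:**
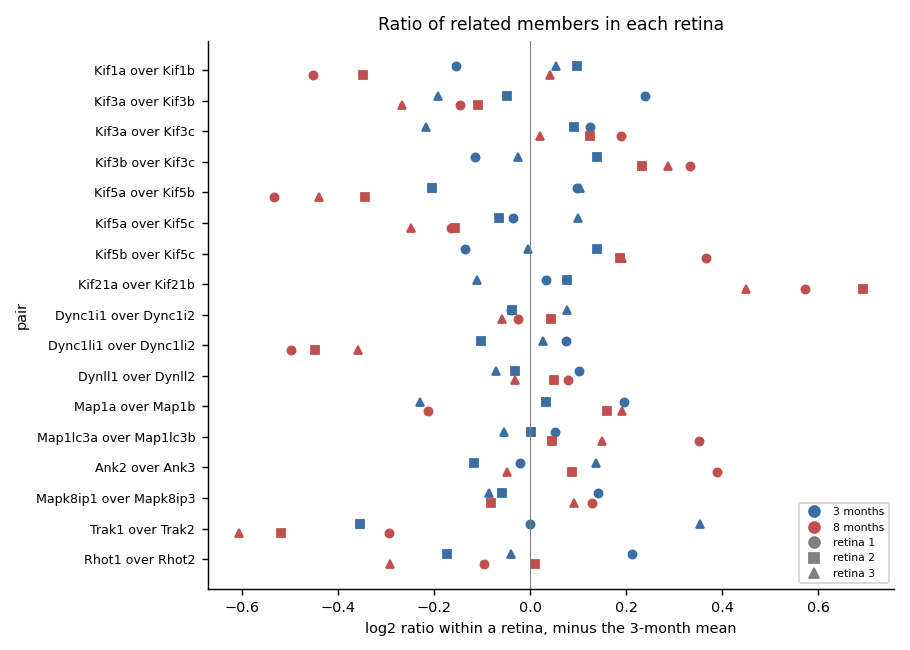
Log2 ratio of related members within each retina, minus its 3-month mean (x axis), for 17 pairs (y axis), with blue for 3 months, red for 8 months and a symbol for each retina. Kif21a over Kif21b lies to the right at 8 months by 0.57, and Kif5a over Kif5b and Dync1li1 over Dync1li2 lie to the left by 0.44 and 0.43, with no overlap of ages.

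Other genes of the same machinery were described in the same way, and their lists were not tested against the members. Over all genes, 63.5% were lower and 15.1% had an unadjusted limma p under 0.05. Of 14 other kinesin genes measured, 0 passed, 5 were lower and 9 higher, with a median of 0.03 and the light chain gene Klc3, at -0.35 ± 0.10, the 1 with an unadjusted limma p under 0.05 (log2, SE; limma adjusted p = 0.258). Kif11, a mitotic kinesin gene, and Kif13b differed by 0.15 and 0.12. Of 19 other dynein, dynactin and dynein adaptor genes, 0 passed and 13 were lower. The median was -0.08, and 2 of the lower ones had an unadjusted limma p under 0.05. In that list Dync2li1, of the dynein that works in cilia, differed by -0.31 ± 0.09, the adaptor gene Bicdl1 by -0.36 ± 0.14 and Dctn5 by -0.15 ± 0.07. Of 33 other microtubule-associated and plus-end genes, 0 passed and 20 were lower, with a median of -0.04. At an unadjusted limma p under 0.05, 3 were lower and 1 was higher. Dclk1, a doublecortin-like kinase gene, Mapre2, a plus-end protein gene, and Stmn4 differed by -0.215, 0.37 and -0.31.

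Of 11 other genes of the membrane skeleton, 0 passed and 8 were lower, with a median of -0.13. Of the lower ones, 2 had an unadjusted limma p under 0.05. The adducin gene Add1, whose product caps actin in the spectrin lattice, differed by -0.23 ± 0.08, the ankyrin gene Ank1 by -0.28 ± 0.12 and Epb41l1 by -0.13 ± 0.09 (log2, SE). Of 26 other cargo adaptor genes, 0 passed, 16 were lower and 0 had an unadjusted limma p under 0.05. Over all genes, 63.5% were lower and 15.1% had such a p. Snph, whose product anchors mitochondria to microtubules, differed by 0.22 ± 0.10, Armcx2 by 0.28 ± 0.14 and the myosin gene Myo6 by -0.24 ± 0.12. Beside a background median of -0.06 over all genes, the 5 lists of related genes thus ran from -0.13 to 0.03.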

How the data were processed

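The values are log2 levels per probe set that the authors deposited, and the submitters' processing notes name GCRMA 1.1.0 and R 1.9.0. They were used as deposited. RNA input was 20 ng per retina, amplified with a NuGEN kit, per the labels' protocols. The settings of GCRMA are not given in the sources used here. GCRMA compresses dim probe sets, whose differences can therefore be understated. The number of arrays limits the precision.

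Of 45101 probe sets, 64 controls were left out, and 20973 had at least 3 values of 4 or more. The fit was limma 3.58.1 (lmFit, eBayes; R 4.3.3), two-sided, with Benjamini-Hochberg adjustment over those probe sets, a threshold of 0.05 and no covariate. It was also run on simulated data with planted differences larger than that of any member. That run does not cover differences of the size found here. A gene is represented by its tested probe set of highest mean; probe sets with the suffix _s_at, _x_at or _a_at are called less specific. Values per retina are given for up to 4 members per class of smallest p, and, chosen after their values were seen, for member probe sets with an unadjusted p under 0.05 and for some probe sets of members whose probe sets differ in sign. They are also given for Kif5a and Kif5c, the other kinesin-1 heavy chain genes, and for the probe sets below the filter with the largest differences. From each related list up to 3 genes of smallest p are named. The planned protein comparison of close relatives was not made, and relatives were compared by their log2 ratio within each retina with an exact permutation test, a choice made after seeing the data. Members and lists were chosen with earlier results of these data known. Alternatives were other filters, scalings, probe set choices, eye side, a replicate block, trend and robust estimation, and arrays left out.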

Additional observations from a re-analysis of the deposited data

How the results depend on the processing

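No member probe set passed the adjusted threshold in any of the settings run. A set of 29 member probe sets was followed through them. It held those with an unadjusted limma p under 0.05, and brightest probe sets of up to 4 members of smallest p per class. The smallest limma adjusted p was 0.111, and 26 of the 29 kept their direction in every setting that held them. The set was chosen on these same arrays, so the kept direction is no separate support for the differences. The 14 lower probe sets (unadjusted limma p under 0.05; 10.3% of all probe sets) became 7 with quantile normalization (6.69% of all), 6 with cyclic loess (6.54%), 5 with median centring (4.77%), 6 with eye side in the fit (6.4%) and 5 when the 2 retinas rich in crystallins were left out (5%). The 4 higher ones (4.63% of all) became 8 with median centring (10.2%), 7 with eye side (3.41%) and 2 without those retinas (2.47%). The median log2 difference of all member genes was -0.046, -0.0305 and -0.00135 with quantile, cyclic loess and median centring. That over all genes was -0.0184, -0.0138 and 0.0254 in the same settings. That of adaptors and regulators was 0.0285, 0.0278 and 0.0683 there and -0.041 with eye side. That of kinesins was -0.0142 with the filter at 6, 0.0293 with median centring, -0.0977 with eye side and -0.115 without the crystallin-rich retinas. That of dynein and dynactin was 0.0763 with median centring and -0.0794 with the median of a gene's probe sets. It was -0.227 with specific probe sets only, which leaves fewer genes and represents some others by dimmer probe sets. That of microtubule-associated proteins was -0.0215 with median centring, and that of ankyrins and spectrins -0.068. Over all genes the median was -0.0642 with eye side, -0.0659 with the filter at 6 and -0.0499 without the crystallin-rich retinas. It was -0.0531 with the median of a gene's probe sets and -0.0601 with specific probe sets only. Sptbn1 reversed to 0.0542 with median centring and 0.0302 without the crystallin-rich retinas, Ank2 to 0.0221 with eye side, and Mapk8ip1 to -0.0133 without the crystallin-rich retinas. Leaving out 1 array gave 7 to 14 lower and 2 to 6 higher probe sets. The medians ran from -0.135 to -0.00781 for kinesins and from -0.0524 to -0.00296 for adaptors. For ankyrins and spectrins they ran from -0.253 to -0.0147, the widest range of any class. Differences ran from -0.293 to 0.00169 for Ank2 and from -0.059 to 0.0314 for Sptbn1, the upper ends of both without 3-month retina 3. Over all genes, the median ran from -0.0652 to -0.0485 with 1 array left out. Except where stated, the cause was not tested.

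The replicate numbers do not pair the retinas, which came from separate animals. Deviations from the age means correlated at -0.141, 0.0638 and -0.283 for numbers 1, 2 and 3, and no retina correlated best with its own number. With the replicate block the 14 lower probe sets became 9, beside 8.54% of all probe sets.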

Other observations

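Of the 38 member probe sets below the filter, those with the largest differences belonged to the membrane skeleton, and neither was tested. Sptbn1 1444089_at read 3.51, 3.38 and 5.15 in 3-month retinas 1, 2 and 3 and 3.43, 2.97 and 3.31 in the 8-month ones, a difference of -0.77 with 3-month retina 3 far above the other 5 retinas. Ank2 1440043_at read 2.90, 3.34 and 3.07 and then 3.78, 3.45 and 3.75, with the ages apart and a difference of 0.55, while both tested probe sets of Ank2 had differences below 0.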
